A study of Mus musculus with 87 samples.

Results

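The 10 genes described here, Bcl2, Bcl2l1, Bcl2l2, Bcl2l10, Mcl1, Bax, Bak1, Bid, Bcl2l11 and Bmf, belong to the BCL2 family of apoptosis regulators. They were chosen by symbol among the 55487 annotated genes of the count tables, and all 10 were found once each. RNA was measured in 41 libraries that fall into 17 groups and 5 experiments on mouse embryos and mouse embryonic stem cells (mESCs), in which the homeobox transcription factors OBOX4 and DUX were induced, depleted or deleted. OBOX4 and DUX drive genes of zygotic genome activation (ZGA), the onset of transcription in the embryo, which in mouse peaks at the 2-cell (2C) stage.

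Proteins of the BCL2 family decide whether the mitochondrial outer membrane is opened to release cytochrome c, the step that commits a cell to apoptosis. BCL2, BCL-XL (encoded by Bcl2l1), BCL-W (Bcl2l2) and MCL1 protect the membrane, and the product of Bcl2l10, known as DIVA or BOO and made mainly in oocytes, is grouped with them. BAX and BAK1 form the pore, while BID, BIM (Bcl2l11) and BMF are BH3-only proteins that sense stress and engage the other members.

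The induction experiment used EB3 mESCs with a doxycycline-driven Obox4 transgene, sampled at 0, 12 and 48 h (n = 3 each). A second set of mESCs was cultured with the splicing inhibitor pladienolide B (PlaB), which turns mESCs into totipotent blastomere-like cells, and comprised WT, Obox4 KO, Dux KO and Obox4/Dux double KO cells (n = 3 each). The transgenic and KO lines were each expanded from single cells, and the Obox4 deletion took out the cluster that holds most Obox4 copies with an intact reading frame, leaving other copies in place. B6D2F1 (BDF1) zygotes from females 8 weeks old were injected with antisense oligonucleotides (ASOs): 40 µM scramble, 20 µM against Obox4, 20 µM against Dux, 40 µM of both (double KD), or 40 µM of both with 100 ng/µL of a codon-optimized Obox4 mRNA (rescue). Each of the 2C libraries held 30 embryos taken 20 h after injection (n = 2 per group). Scramble and double KD embryos were also sampled as morulae (n = 2 each), the latter being those embryos that had reached morula-like morphology. Single blastomeres, all carrying the Dux deletion, were Obox4 WT, Het or KO (n = 2 each). The study describes the embryo pools and the induced cultures as biological replicates. For the PlaB-treated cells the sources used here do not say whether libraries came from separate cultures, and p-values there cover the variation among the libraries sequenced.

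Total counts per library were between 14283083 and 104864947, with the PlaB double KO replicate 3 the lowest. Counts over the 39 annotated Obox4 copies were summed to check the labels. In 2C-embryos they were 68.0 and 83.5 CPM (counts scaled to a common library size) in the libraries labelled Obox4 KD against 68.4 and 76.0 in scramble. By this sum these libraries did not show the depletion their label names. The sum was 44.1 and 41.7 CPM in the double KD. Outside the blastomere tables, reads that map to several places were discarded from the gene counts. The sum there covers only part of the RNA of a multicopy gene. The blastomere tables share such reads in fractions, so that their sums stand on another basis. The study assessed the knockdown by RNA-seq and by staining of the OBOX4 protein in 2C-embryos, which was not re-examined here. In morulae labelled double KD the Obox4 sum (3.74 and 7.93 CPM) was above that of scramble (0.321 and 0.351 CPM). The sum also counts copies outside the deleted cluster, so the blastomere values (19.4 and 27.9 CPM in KO, 20.7 and 31.0 CPM in WT) do not check the Obox4 genotype. Duxf3, the Dux gene, was at 0 in every blastomere, Dux KO and double KO library and at 4.73 to 5.78 CPM in PlaB WT cells. In PlaB-treated cells the Obox4 sum was 15.6 to 17 CPM in WT and 4.68, 3.65 and 11.9 CPM in Obox4 KO, of which the third library stood nearest to WT. It was at 0.116 to 0.130 CPM in Dux KO and at 0 to 0.192 CPM in the double KO, so that these lines did not differ in it beyond a few reads. Induction raised it from at most 0.611 CPM at 0 h to at least 7.08 CPM at 48 h. Markers of cumulus cells, fibroblasts, blood and sperm were low in 2C-embryos (each list summed to at most 9.64 TPM, a level scaled for transcript length and depth), while all 10 markers of the 2C stage were above 1 TPM there.

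Bcl2l10 led the family in 2C-embryos and blastomeres, and Mcl1 led it in morulae and mESCs. To compare genes, CPM scaled by TMM (trimmed mean of M-values, which corrects for composition) were divided by exon length in kilobases. In scramble 2C-embryos Bcl2l10 stood at 954 ± 77.4 CPM per kilobase (SD, n = 2), which was 92.7% of the summed level of the 10 genes, followed by Bcl2l1 with 47.6 ± 2.03 and Mcl1 with 21.0 ± 1.75. Bcl2l11 was at 3.87 ± 0.0785, and the remaining 6 genes were at or below 1.24 CPM per kilobase, the effectors Bax and Bak1 among them. The ranges of Bid and Bcl2l2, and of Bmf and Bcl2, overlapped in these embryos.

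Obox4 WT blastomeres showed the same first 3 genes, with Bcl2l10 at 498 ± 35.9, Bcl2l1 at 47.6 ± 0.983 and Mcl1 at 17.7 ± 7.32 CPM per kilobase (SD, n = 2). In scramble morulae Mcl1 led with 77.2 ± 4.41 CPM per kilobase, ahead of Bax (13.7 ± 0.325) and Bcl2l1 (7.64 ± 0.137), and Bcl2l10 was at 1.73 ± 0.128. Uninduced mESCs had Mcl1 at 100.3 ± 12.4, Bax at 47.5 ± 5.13, Bid at 18.7 ± 1.11 and Bak1 at 14.3 ± 1.22 CPM per kilobase (SD, n = 3), and PlaB WT cells had Mcl1 at 117 ± 3.04, Bax at 48.5 ± 2.58, Bak1 at 24.7 ± 0.389 and Bcl2l1 at 18.0 ± 0.945. Bcl2l10 was counted between 0 and 10 times in every mESC library. The 5 experiments were sequenced and scaled separately, and embryos and cultured cells with different library kits, so that differences in level across experiments are descriptions and were not tested.

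**Figure D1:**
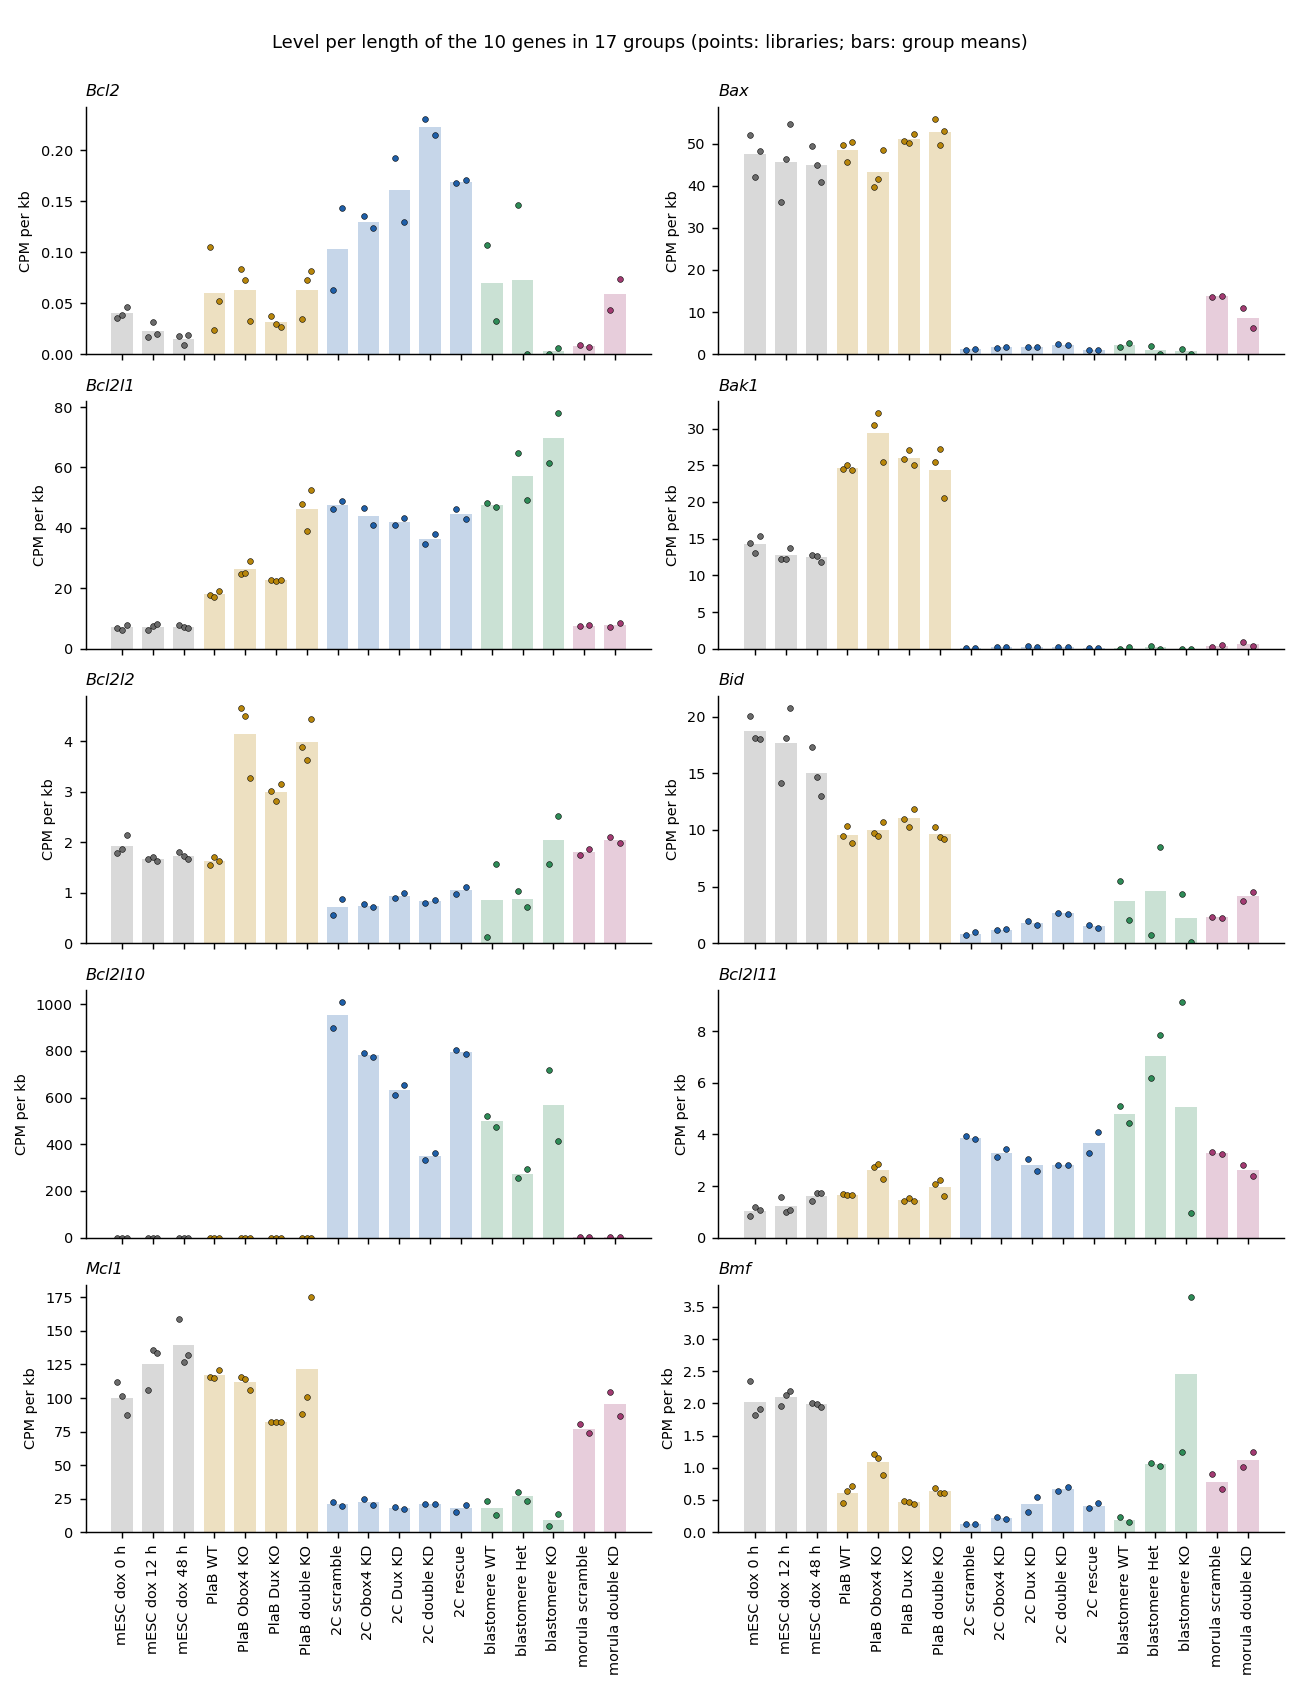
Level of each gene (TMM-scaled CPM per kilobase of exon, linear axes starting at 0, with a scale of its own for each gene) in the 17 groups; points are libraries, bars are group means and colours mark the 5 experiments. Bcl2l10 is high in 2C-embryos and blastomeres and near 0 in mESCs and morulae, while Bax and Bak1 are high in mESCs and low in 2C-embryos and blastomeres, and the bar for Bcl2l10 is shortest among 2C groups in the double KD (349 CPM per kilobase).

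Across the 17 group means of log2(TPM + 1), the members closest to each other were Mcl1 and Bax (Pearson r = 0.98), Bax and Bak1 (r = 0.974) and Bax and Bid (r = 0.959), whereas Bcl2l10 ran against Mcl1 (r = -0.916) and Bax (r = -0.912). Among 11861 genes that reached 5 TPM in a group, the patterns most like that of Bcl2l10 were those of Rfpl4, Zfp957 and Obox5 (each r = 0.999), and those most like Bak1 were Cdx1, Ak1 and Frs3 (each r = 0.998). Araf, Tars2 and Iqgap1 were nearest to Bax (r = 0.998, 0.997 and 0.997), Alkbh1, Trmu and Aifm1 to Bid (0.994, 0.993 and 0.993), and Mrpl49, Snrnp200 and Stk4 to Mcl1 (0.993, 0.993 and 0.992). Nearest to Bcl2l1 were Dlgap4, Foxm1 and Prmt2 (0.978, 0.974 and 0.973), and nearest to Bcl2l2 were Paxx, Pard6a and Mob3c (0.986, 0.984 and 0.983). Likeness was lower for Bmf (Atp7b, Dnah2os and Snx13, r = 0.956, 0.952 and 0.949), for Bcl2l11 (Fzd7, Fzd2 and Slco4a1, r = 0.903, 0.883 and 0.871) and for Bcl2, which never reached 5 TPM (Mtfr2, Sgms2 and Pcyt1a, r = 0.880, 0.818 and 0.815). The group means share libraries and experiments, so these coefficients are descriptions without a test.

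Whether the family responds to the loss of either factor at ZGA was asked in the 2C-embryos, with edgeR's quasi-likelihood test over all 23085 genes that passed a filter on low counts, and a gene was called at an adjusted p of at most 0.01 and a change of at least 2-fold. All 10 members passed the filter. Bcl2l10 fell, and Bid and Bmf rose, when both factors were targeted. These 3 of 10 members were called in the double KD against scramble, where 11.6% of all genes were called. With 2 libraries a group, 70.9% of all genes had ranges without overlap in that comparison. The median log2 fold change of the members was 0.56, against 0.03 over all genes tested.

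Bcl2l10 (chromosome 9, 75347758 to 75351649, plus strand, GRCm38.p6) was the most abundant member, with 1113 and 1248 CPM in the 2 scramble libraries. It was at 980 and 956 CPM in the libraries labelled Obox4 KD, at 754 and 807 in the Dux KD, at 412 and 451 in the double KD and at 997 and 971 in the rescue. Each of the 3 ASO groups lay wholly below scramble. Ranges apart from scramble were seen for 49.2% of all genes in the labelled Obox4 KD and 61% in the Dux KD. The rescue was apart from the double KD for 62.7% of all genes. The double KD lay wholly below the other groups. The rescue libraries lay between scramble and the Dux KD. In the double KD the log2 fold change was -1.45 ± 0.07 (SE, edgeR adjusted p = 1.36e-10), which is 2.73-fold lower than scramble. Adding Obox4 mRNA to the double KD raised Bcl2l10 by 1.19 ± 0.07 on the log2 scale (edgeR adjusted p = 8.48e-09).

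The smaller differences of Bcl2l10 did not reach 2-fold. It was 1.51-fold lower in the Dux KD (log2 fold change -0.60 ± 0.07, edgeR adjusted p = 1.19e-05), 1.22-fold lower in the libraries labelled Obox4 KD (-0.29 ± 0.07, edgeR adjusted p = 0.0158) and 1.81-fold lower in the double KD than in the Dux KD (-0.85 ± 0.07, edgeR adjusted p = 1.11e-06). The 2 contrasts for the Obox4 ASO, with and without the Dux ASO, differed by -0.57 ± 0.09 on the log2 scale (edgeR adjusted p = 0.00423). The arm without the Dux ASO is the one whose libraries showed no lower Obox4 sum, whereas the double KD did, so that this contrast does not compare equal depletions. Total ASO dose was also lower in the Dux KD and the labelled Obox4 KD than in scramble and the double KD. Adding the Obox4 ASO to the Dux ASO therefore raised the total dose, whereas the labelled Obox4 KD received less than scramble. The difference of effects cannot be told apart from this difference in dose. It did not reach 2-fold, and none of the 10 members was called for it. Of all genes, 0.256% were called for this difference of effects.

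The other protective members moved less in these embryos. Bcl2l1 (chromosome 2, 152780668 to 152831728, minus strand), the second most abundant, had 211 and 225 CPM in scramble and 159 and 174 CPM in the double KD. The double KD libraries lay below both scramble libraries, a 1.31-fold difference that was under the 2-fold threshold (log2 fold change -0.39 ± 0.08, edgeR adjusted p = 0.000926). Mcl1 had 76.1 and 67.6 CPM in scramble and 70.9 and 71.3 CPM in the double KD, with overlapping ranges. Bcl2, at 0.581 and 1.31 CPM in scramble and 2.12 and 1.97 CPM in the double KD, did not reach the adjusted p (0.0191 by edgeR), and Bcl2l2 ranged from 2.48 to 4.95 CPM over the 10 libraries.

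Of the BH3-only genes, Bid (chromosome 6, 120891930 to 120916853, minus strand), whose product links death receptors to mitochondria, had 2.45 and 3.41 CPM in scramble, 4.01 and 4.47 in the libraries labelled Obox4 KD, 6.92 and 5.79 in the Dux KD and 9.50 and 9.11 in the double KD. These 4 groups did not overlap. The increase was 2.2-fold in the Dux KD (log2 fold change 1.14 ± 0.20, edgeR adjusted p = 0.000885) and 3.21-fold in the double KD (1.68 ± 0.20, edgeR adjusted p = 4.33e-06). With the rescue mRNA Bid was at 5.84 and 4.74 CPM, below both double KD libraries and above both scramble libraries, and its difference from the double KD (-0.81 ± 0.18, edgeR adjusted p = 0.00262) was under 2-fold.

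Bmf (chromosome 2, 118528757 to 118549687, minus strand), which is known to be released from the cytoskeleton when cells detach, had 0.642 and 0.657 CPM in scramble, 1.67 and 2.89 in the Dux KD and 3.36 and 3.70 in the double KD. It rose 3.45-fold in the Dux KD (log2 fold change 1.79 ± 0.33, edgeR adjusted p = 0.00117) and 5.4-fold in the double KD (2.43 ± 0.32, edgeR adjusted p = 1.37e-05), from a level near 1 CPM. The difference in ASO dose between the Dux KD and scramble applies to Bmf as well. In the rescue it was at 1.95 and 2.34 CPM, and the difference from the double KD missed the threshold (edgeR adjusted p = 0.0541). Bid and Bmf were the only 2 of 10 members called in the Dux KD, in which 4.3% of all genes were called, and both calls were lost when scramble replicate 1 was left out (edgeR adjusted p = 0.0288 for Bid and 0.0171 for Bmf). The call for Bid was also lost without Dux KD replicate 1 (edgeR adjusted p = 0.0202), and that for Bmf without Dux KD replicate 2 (0.0191) or scramble replicate 2 (0.0119). Bcl2l11, at 31.5 and 30.6 CPM in scramble and 22.7 and 22.7 CPM in the double KD, was 1.37-fold lower there (log2 fold change -0.45 ± 0.12, edgeR adjusted p = 0.00816) and was not called.

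Bax (chromosome 7, 45461697 to 45466898, minus strand), a pore-forming effector, was at 1.77 and 2.14 CPM in scramble, 3.66 and 3.57 CPM in the double KD and 1.72 and 1.61 CPM in the rescue. The rescue fell below the double KD by 1.12 ± 0.23 on the log2 scale (edgeR adjusted p = 0.00127), and the double KD was 1.86-fold above scramble without reaching 2-fold (0.89 ± 0.24, edgeR adjusted p = 0.00681). Without double KD replicate 1 the rescue call for Bax was lost (edgeR adjusted p = 0.0199). Bak1 was between 0.306 and 0.772 CPM in all 10 libraries. Bax and Bcl2l10 were the 2 of 10 members called in the rescue against the double KD, in which 4.37% of all genes were called.

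None of the 10 members was called in the libraries labelled Obox4 KD (0.412% of all genes) or in the double KD against the Dux KD (0.754% of all genes). The number of members at an adjusted p of at most 0.05 without a fold threshold was 1 in each of these comparisons, Bcl2l10 in both. At an unadjusted p under 0.05 were 3 of 10 members (19.2% of all genes) and 4 of 10 (24.3% of all genes).

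**Figure D2:**
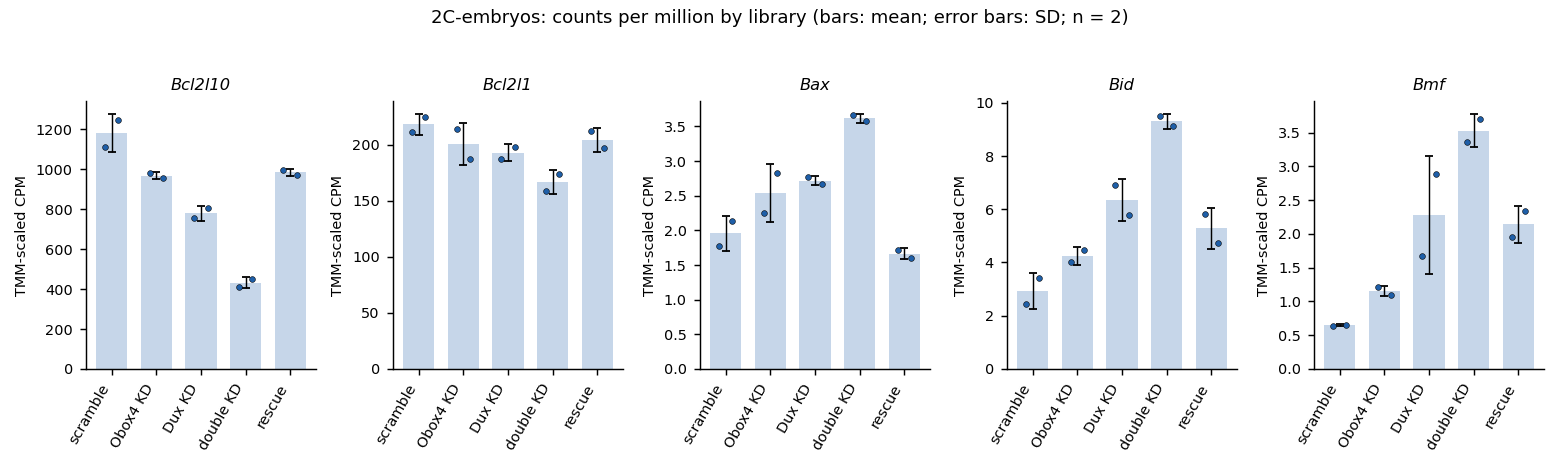
TMM-scaled CPM of 5 members in the 10 libraries of 2C-embryos; points are libraries of 30 embryos, bars are means and error bars are SD (n = 2), on linear axes that start at 0. Bcl2l10 is lowest in the double KD (412 and 451 CPM) and at 997 and 971 CPM in the rescue, while Bid and Bmf are highest in the double KD, and Bax is highest there and lowest in the rescue (1.72 and 1.61 CPM).

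Embryo markers moved alongside. The 10 markers of the 2C stage summed to 527 to 623 TPM in scramble, 307 to 314 in the Dux KD, 215 to 248 in the double KD and 301 to 355 in the rescue. The 15 maternal transcripts summed to 1173 to 1533, 1269 to 1275, 983 to 1110 and 1337 to 1517 TPM in the same order. The 6 blood markers summed to 1.73 and 6.10 TPM in scramble, 3.28 and 3.48 in the Dux KD, 9.38 and 9.64 in the double KD and 5.52 and 3.24 in the rescue, with at most 2 of the 6 above 1 TPM. The part of these markers in the differences of Bcl2l10, Bid, Bmf and Bax was not tested. In bulk libraries fewer cells that carry a transcript and less transcript per cell cannot be told apart.

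Beyond the 10 members, 71 genes of the apoptosis pathway were followed in 7 lists, namely other BCL2 family genes, apoptosome and caspases, inhibitors of apoptosis, death receptors, p53 targets, upstream regulators of the family and its partners in the outer membrane, the last of which had no called gene in any comparison. In the double KD 5 of the 61 tested genes were called (8.2%, below the 11.6% of all genes), of which 4 rose. The TNF receptor gene Tnfrsf1a rose from 0.199 to 1.4 mean CPM (log2 fold change 2.73 ± 0.52, edgeR adjusted p = 0.000476), its adaptor Tradd from 2.29 to 7.38 mean CPM (1.67 ± 0.22, edgeR adjusted p = 1.06e-05) and Bbc3, which encodes the BH3-only protein PUMA, from 0.879 to 2.92 mean CPM (1.70 ± 0.37, edgeR adjusted p = 0.00135). Fasl was at 0 in scramble and at a mean of 0.320 CPM in the double KD (edgeR adjusted p = 0.0083). Casp8, the initiator caspase that cleaves BID, fell by 1.06 ± 0.22 on the log2 scale (from 10.2 to 4.87 mean CPM, edgeR adjusted p = 0.00101) and in the rescue rose to 10.7 mean CPM (1.15 ± 0.21, edgeR adjusted p = 0.000605), the 1 of 61 genes called there (1.64%, below the 4.37% of all genes). In the Dux KD 2 of 61 were called (3.28%, below the 4.3% of all genes), Tradd (1.36 ± 0.22, edgeR adjusted p = 0.000369) and Bbc3 (1.51 ± 0.37, edgeR adjusted p = 0.00849). The lower ASO dose of the Dux KD applies to these calls too. None was called in the libraries labelled Obox4 KD (0.412% of all genes) or between the double KD and the Dux KD (0.754% of all genes). In morulae (0 of 61) and blastomeres (0 of 54 in Het and in KO) 0% of all genes were called, so these counts say nothing particular about the pathway. The study reports activated apoptosis-related pathways in double KD embryos of morula-like morphology, from DESeq2. No DESeq2 count for the 71 genes is given here.

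Morulae were compared to see the family after ZGA. None of the 10 members was called in morulae labelled double KD, and neither was any of the 22142 genes tested (0%), although 3941 had an unadjusted p under 0.05. DESeq2 called 726 genes and none of the members. Bcl2l10 had 2.03 and 2.26 CPM in scramble and 2.82 and 4.60 CPM in morulae labelled double KD. Bid had 8.34 and 7.84 CPM in scramble and 13.2 and 16.1 CPM in the labelled double KD, and Bax 21.2 and 22.0 CPM in scramble and 17.2 and 9.90 CPM in the labelled double KD. These ranges did not overlap for any of the 3 genes, nor for 57.4% of all genes tested, and the differences did not pass the test. Without double KD replicate 1, in which Obox4 was the lower of the 2, Bax was called (log2 fold change -1.21, edgeR adjusted p = 6.95e-05), in a fit that called 5790 of 26354 genes and in which the lone double KD library was assumed to vary like the scramble pair. The 10 morula and trophectoderm markers summed to 250 to 313 TPM in scramble and 287 to 612 TPM in morulae labelled double KD. The 15 maternal transcripts summed to 20.6 and 21.5 TPM in scramble and 37.0 and 99.1 TPM in the labelled double KD. The 10 markers of the 2C stage summed to 108 and 137 TPM and to 134 and 318 TPM. Both lists were higher in the library where Bcl2l10 was higher. Their part in these values, that of Bcl2l10 included, was not tested.

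The single blastomeres tested Obox4 Het and KO against WT on the Dux-deleted background. None of the 10 members was called in Het or in KO, and none of 19182 genes was (0% in both comparisons), with 532 and 1388 genes at an unadjusted p under 0.05 and with 110 and 466 genes called by DESeq2. Bcl2l10 was at 647 and 585 CPM in WT, 317 and 361 CPM in Het and 891 and 511 CPM in KO, so that Het lay below WT while KO spanned it. The 15 maternal transcripts summed to 1085 and 1287 TPM in WT, 727 and 749 TPM in Het and 890.0 and 1045 TPM in KO, and their part in the values of Bcl2l10 was not tested. Bmf was at 1.25 and 0.794 CPM in WT, 5.67 and 5.43 CPM in Het and 6.52 and 19.2 CPM in KO, with both mutant groups above WT, and DESeq2 called Bmf in KO where edgeR did not. The 10 markers of the 2C stage summed to 161 to 247 TPM in WT, 107 to 108 in Het and 70.7 to 92.2 in KO, and their part in the values of Bmf was not tested. Bcl2l1 was at 221 and 215 CPM in WT and 282 and 357 CPM in KO. Ranges apart from WT were seen for 34.7% of all genes in Het and 39.6% in KO. Bak1 was at 0 in both KO libraries, in 1 of the WT libraries and in 1 of the Het libraries, and Bax ranged from 0 to 4.12 CPM. The spread between blastomeres was wide, with Bcl2l11 at 73.3 and 7.73 CPM and Bid at 15.4 and 0.389 CPM in the 2 KO libraries. Counting in these tables ignored strand, so reads of Bid and the overlapping Bcl2l13, or of Bak1 and the overlapping Ggnbp1, cannot be told apart there.

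Induction of Obox4 in mESCs called none of the members. Bcl2 and Bcl2l10 were removed by the filter on low counts, and 0 of the 8 tested members were called at 12 h (0.757% of 18625 genes were) and 0 of 8 at 48 h (3.95% of genes). DESeq2 called none of them either. An unadjusted p under 0.05 was found for 1 of 8 members at 12 h (15.1% of all genes) and 2 of 8 at 48 h (24.5%). Mcl1 was at 383, 348 and 298 CPM at 0 h and 542, 433 and 452 CPM at 48 h, all 3 induced libraries above the uninduced ones (log2 fold change 0.47 ± 0.14, edgeR adjusted p = 0.0522). Bcl2l11 was at 6.68, 9.67 and 8.45 CPM at 0 h and 11.4, 13.8 and 13.9 CPM at 48 h, again without overlap (0.65 ± 0.20, edgeR adjusted p = 0.0561). Ranges without overlap were seen for 31.9% of all genes at 48 h, and neither Mcl1 nor Bcl2l11 passed the threshold. The same-numbered libraries at 0 h and 48 h deviated together (r = 0.728, 0.537 and 0.258). In a fit of those 6 libraries with the replicate number as a block, the adjusted p by edgeR was 0.000639 for Mcl1 (log2 fold change 0.47) and 0.00114 for Bcl2l11 (0.67), against 0.031 and 0.0188 without the block. Both remained under 2-fold. Of the effectors, Bax was between 57 and 85.9 CPM and Bak1 between 28.5 and 37.1 CPM over the 9 libraries. Of the 60 pathway genes tested, Birc7, an inhibitor of apoptosis, was called at 48 h, falling from 6.39 to 2.62 mean CPM (log2 fold change -1.29 ± 0.18, edgeR adjusted p = 0.00101), and none was called at 12 h.

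In PlaB-treated mESCs Bcl2l2 rose in Obox4 KO and in the double KO, and Bcl2l1 rose in the double KO over both WT and Dux KO. The other 7 members tested, Mcl1 and Bcl2 among them, were not called in any comparison. Bcl2l10 did not pass the filter, so that 9 members were tested among 22328 genes. In the double KO against WT 2 of 9 members were called, where 18% of all genes were, in Obox4 KO 1 of 9 (8.88% of genes), in Dux KO 0 of 9 (6.32% of genes) and in double KO against Dux KO 1 of 9 (7.07% of genes). These shares lie near the background, and the 3 comparisons with WT share its libraries. Ranges apart from WT were seen for 45.5% of all genes in Obox4 KO, 56.9% in Dux KO and 56.1% in the double KO. The double KO was apart from Dux KO for 48.9% of all genes. The median log2 fold change of the members was 0.25 in Obox4 KO, 0.07 in Dux KO and 0.06 in the double KO, against 0.02, 0.00 and -0.06 over all genes tested.

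Bcl2l1, which encodes BCL-XL, had 82.1, 78.5 and 87.1 CPM in WT, 114, 115 and 133 CPM in Obox4 KO, 104, 104 and 104 CPM in Dux KO and 219, 179 and 240.3 CPM in the double KO. Every KO library lay above the WT libraries, and the double KO lay above the single KOs. The increase was 2.57-fold in the double KO over WT (log2 fold change 1.36 ± 0.12, edgeR adjusted p = 2.52e-06) and 2.05-fold over Dux KO (1.03 ± 0.12, edgeR adjusted p = 9.97e-05), and in Obox4 KO it was 1.46-fold (0.55 ± 0.12, edgeR adjusted p = 0.00424), under the threshold. Its call over Dux KO was borderline and fell just under 2-fold without double KO replicate 3 (log2 fold change 0.92), with no filter on low counts (0.99) and with multi-mapping reads counted (0.99).

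Bcl2l2 (chromosome 14, 54883377 to 54888234, plus strand), which encodes BCL-W, had 6.95, 7.65 and 7.22 CPM in WT, 20.8, 20.1 and 14.6 CPM in Obox4 KO, 13.4, 12.6 and 14.1 CPM in Dux KO and 17.4, 16.2 and 19.8 CPM in the double KO. All 9 KO libraries were above WT. It rose 2.54-fold in Obox4 KO (log2 fold change 1.35 ± 0.16, edgeR adjusted p = 9.59e-05) and 2.44-fold in the double KO (1.29 ± 0.16, edgeR adjusted p = 4.77e-05), and was 1.84-fold above WT in Dux KO (0.88 ± 0.16, edgeR adjusted p = 0.00195). The contrast for Obox4 was smaller with Dux deleted, with a difference of -0.94 ± 0.22 on the log2 scale (edgeR adjusted p = 0.0269) that was not called. For this difference 0 of 9 members were called, and 1.25% of all genes were. The Obox4 sum was near 0 in both Dux KO and the double KO, so that the contrast does not compare equal losses. The double KO was made from Obox4 KO cells and not from the Dux KO line. Line and genotype therefore cannot be told apart between the double KO and Dux KO, for Bcl2l1 as well. The KO lines were each expanded from single cells. In every comparison of a KO line with WT, for Bcl2l1 and Bcl2l2 alike, line and genotype cannot be told apart either. A read-through gene on the same strand, Gm20521, shares exons with Bcl2l2 and was itself counted at most 9 times in any library.

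The remaining protective gene, Mcl1, was at 395, 394 and 412 CPM in WT, 281, 281 and 282 CPM in Dux KO and 302, 344 and 600 CPM in the double KO, the last value being replicate 3. Bcl2l11 was at 13.6, 13.3 and 13.2 CPM in WT and 21.9, 22.9 and 18.3 CPM in Obox4 KO, a 1.57-fold difference under the threshold (log2 fold change 0.65 ± 0.15, edgeR adjusted p = 0.00658), and Bmf was 1.78-fold above WT there (0.83 ± 0.21, edgeR adjusted p = 0.0109). Bax was between 62.5 and 88.1 CPM, Bak1 between 49.5 and 77.3 CPM and Bid between 31.5 and 42.1 CPM over the 12 libraries.

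**Figure D3:**
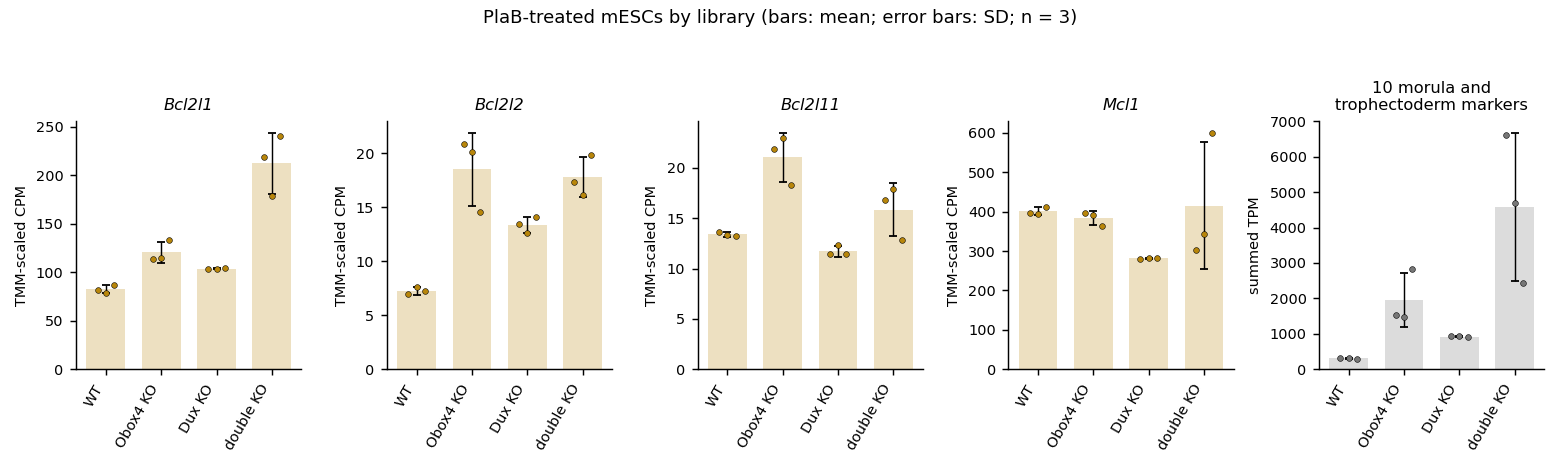
TMM-scaled CPM of 4 members and the summed TPM of 10 morula and trophectoderm markers in the 12 libraries of PlaB-treated mESCs; points are libraries, bars are means and error bars are SD (n = 3), on linear axes that start at 0. Bcl2l1 is highest in the double KO (179 to 240.3 CPM), Bcl2l2 is above WT in every KO line, and the marker sum is also highest in the double KO (2434 to 6619 TPM).

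Sums of markers of other cells also differed between these groups. The 10 morula and trophectoderm markers summed to 292 to 318 TPM in WT, 1488 to 2841 in Obox4 KO, 916 to 934 in Dux KO and 2434 to 6619 in the double KO, with 9 of 10 above 1 TPM in every library. The 10 pluripotency markers summed to 5699 to 6151, 3756 to 4247, 5512 to 5682 and 2329 to 3701 TPM in the same order. The 10 markers of the 2C stage summed to 1129 to 1415 TPM in WT, 548 to 929 in Obox4 KO, 92.6 to 102 in Dux KO and 17.7 to 64.3 in the double KO, and Zscan4c, Zscan4d, Zscan4f, Tcstv3 and Zfp352 were at 0 in the last. Within the double KO, replicate 3 had the highest Bcl2l1 and Bcl2l2 and the lowest morula and trophectoderm sum (2434 TPM against 6619 and 4689). Within Obox4 KO, replicate 3 had the highest such sum (2841 TPM), with the highest Bcl2l1 and the lowest Bcl2l2. The part of these markers in the rise of Bcl2l1 and Bcl2l2 was not tested.

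Of the 63 pathway genes tested in PlaB-treated cells, 10 were called in the double KO (15.9%, against 18% of all genes), 6 in Obox4 KO (9.52% against 8.88%), 1 in Dux KO (1.59% against 6.32%) and 7 in the double KO against Dux KO (11.1% against 7.07%). These shares were near or below the background, except that of the double KO against Dux KO, which was above it and was not tested. The genes below are given as single results. Tradd rose in Obox4 KO (1.23 ± 0.19, edgeR adjusted p = 0.000595) and in the double KO (log2 fold change 1.94 ± 0.20, edgeR adjusted p = 8.97e-06), as did Tnfrsf1a (1.73 ± 0.29 and 1.34 ± 0.28, edgeR adjusted p = 0.000902 and 0.00242) and Birc3, an inhibitor of apoptosis (1.24 ± 0.24 and 1.18 ± 0.24, edgeR adjusted p = 0.00274 and 0.00201). Ddit3, which encodes the stress factor CHOP, rose in both (2.36 ± 0.33 and 1.60 ± 0.33, edgeR adjusted p = 0.000318 and 0.00195), and Huwe1, a ubiquitin ligase that acts on MCL1, fell in both (-1.35 ± 0.17 and -1.20 ± 0.17, edgeR adjusted p = 0.000126 and 0.00011). Bcl2l14 was called in Obox4 KO at 14.0 against 7.00 mean CPM in WT. In the double KO the BH3-only genes Bbc3 and Bik rose over WT (1.31 ± 0.18 and 1.82 ± 0.35, edgeR adjusted p = 0.000103 and 0.00114), and so did Bok, a relative of Bax (2.00 ± 0.47, edgeR adjusted p = 0.00441). Of the p53 targets Perp rose from 71.4 to 159 mean CPM and Eda2r fell from 178 to 63.8 mean CPM. Pmaip1, which encodes the BH3-only protein NOXA, fell in Dux KO (-1.24 ± 0.12, edgeR adjusted p = 8.92e-06) and was higher in the double KO than in Dux KO (1.05 ± 0.12, edgeR adjusted p = 9.35e-05).

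**Figure D4:**
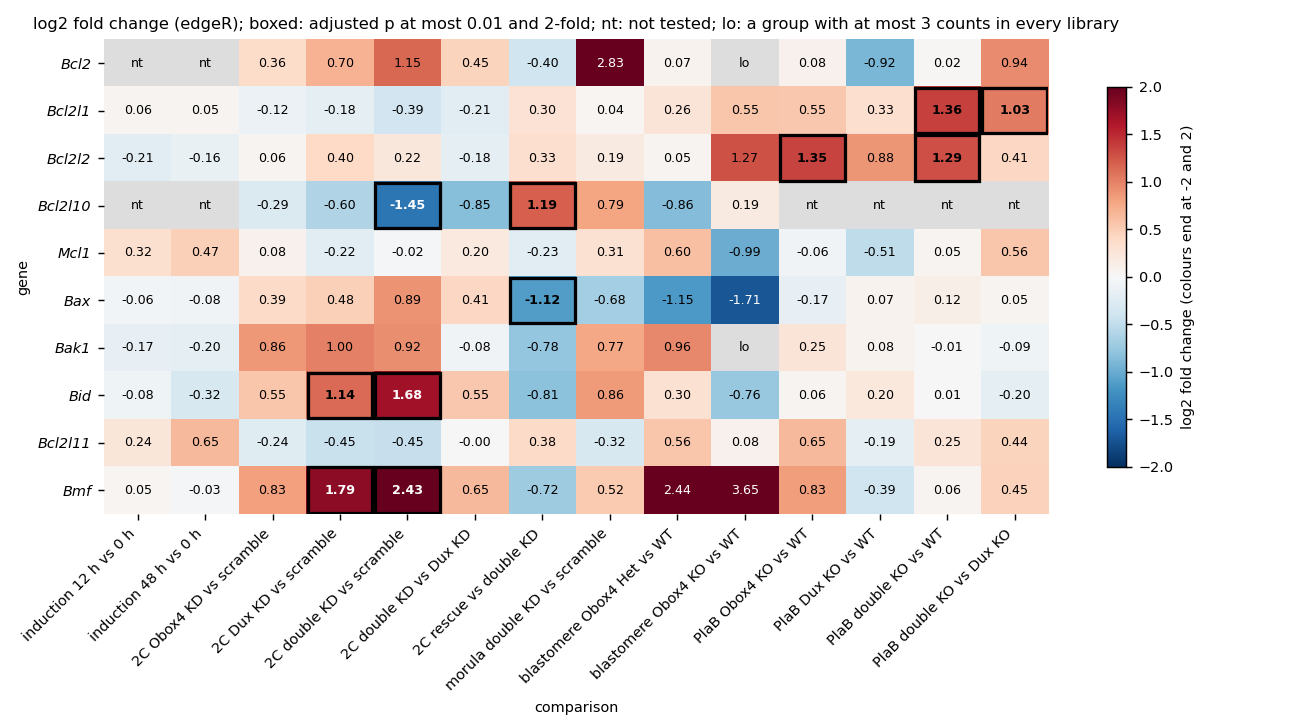
Log2 fold change of the 10 members (rows, by role) in the 14 comparisons (columns), from edgeR; colours run from -2 to 2 and boxes mark an adjusted p of at most 0.01 with at least 2-fold. The 11 boxes lie in 6 comparisons of 2C-embryos and PlaB-treated mESCs and in 6 genes; nt marks a gene that was not tested and lo a gene with at most 3 counts in every library of a group.

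Binding of the factors and histone marks at the 10 genes were read from the deposited peak lists of CUT&RUN, which cuts and sequences DNA beside an antibody target. Epitope-tagged OBOX4 (3xFLAG-OBOX4) was profiled in 3 libraries of induced mESCs with 27988, 20620 and 22481 peaks, and 3xFLAG-DUX in 1 with 1844 peaks. An OBOX4 peak within 3000 bases of the gene start in at least 2 of 3 lists was found at 3 of 10 members, Bcl2l1, Bcl2l11 and Mcl1, and at 37.7% of the 18625 genes tested in the induction series. The share of members is not above that background. No member had a DUX peak, against 1.5% of those genes. Bcl2l10, Bcl2, Bak1 and Bmf had no OBOX4 peak in any list, and Bax, Bcl2l2 and Bid had a peak in 1 list each.

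The peak at Bcl2l1 spanned chr2:152830490-152831669 in replicate 1 (GRCm38.p6) and had a fold enrichment of 3.66, 4.16 and 3.24 and a −log10 q of 29.9, 32.1 and 22.8 in the 3 lists. Its 3 summits lay between 152831410 and 152831468, inside the gene but in no annotated exon, and the median was 278 bases from the outermost start. At Bcl2l11 the peak over the start spanned chr2:128125734-128126204 in replicate 1 (fold enrichment 6.94, −log10 q 13.9), and the 3 summits lay within 128125927 to 128125932, 108 bases before the start. At Mcl1 the peaks were weaker and farther away (fold enrichment 3.86 and 4.50, 1401 and 1301 bases from the start), and they were lost with a limit of 1000 bases.

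The sequences around the median summits are shown because these peaks recurred in all 3 lists, and the Bax promoter because it alone among the members held CTGGGAT or GGATTA. Each is written 5′ to 3′ on the strand of its gene in GRCm38.p6, the first 2 as 201 bases centred on the summit and the last as the 250 bases that RefSeq places before the Bax start. Capitals mark matches, on either strand, to CTGGGAT (the start of the motif derived in the study from these OBOX4 peaks), GGATTA (a word bound by related homeodomains) or CCAAT (picked after the summit sequences were seen), which do not overlap each other here.
Bcl2l1, chr2:152831350-152831550, minus strand: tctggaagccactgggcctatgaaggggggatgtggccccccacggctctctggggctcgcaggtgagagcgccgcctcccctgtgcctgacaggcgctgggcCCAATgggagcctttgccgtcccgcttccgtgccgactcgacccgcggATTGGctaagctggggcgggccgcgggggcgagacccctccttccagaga
Bcl2l11, chr2:128125830-128126030, plus strand: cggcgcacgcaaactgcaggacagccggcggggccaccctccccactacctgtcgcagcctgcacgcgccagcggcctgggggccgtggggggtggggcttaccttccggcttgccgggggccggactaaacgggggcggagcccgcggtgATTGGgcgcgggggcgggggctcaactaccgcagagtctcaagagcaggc
Bax, chr7:45466899-45467148, minus strand: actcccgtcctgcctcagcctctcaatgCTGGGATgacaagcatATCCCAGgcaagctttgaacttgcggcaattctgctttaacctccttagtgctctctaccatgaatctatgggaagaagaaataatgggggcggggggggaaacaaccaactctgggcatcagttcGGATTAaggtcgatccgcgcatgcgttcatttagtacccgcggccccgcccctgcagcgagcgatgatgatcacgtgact

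CCAAT occurred 2 times in the Bcl2l1 window and 1 time in the Bcl2l11 window, and in 32.1% of the 27713 windows of the same length around the replicate 1 summits. CTGGGAT and GGATTA were in neither window, and in 10.1% and 14.4% of those windows. In the 250 bases before the start, CTGGGAT occurred 2 times and GGATTA 1 time at Bax and nowhere in the other promoters of the members (14 promoters of 9 members matched by symbol), against 5.16% and 6.25% of 32851 RefSeq promoters. CCAAT was before a start of Bcl2l11 and Bmf and in 33.8% of those promoters. Both summit windows were rich in G and C (70.6% at Bcl2l1 and 74.1% at Bcl2l11). A match of letters is a description and not a binding site.

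Histone marks were read in the same way. In untreated WT mESCs all 10 members had H3K4me3, a mark of promoters, in at least 2 of 3 lists (81.6% of genes). H3K27ac, a mark of active promoters, was at 7 of 10 (50.8% of genes), namely Bcl2l1, Bcl2l2, Mcl1, Bax, Bak1, Bid and Bcl2l11. H3K27me3, a mark of Polycomb repression, was at 4 of 10 (22% of genes), namely Bcl2, Bcl2l10, Bcl2l11 and Bmf. Bcl2l11 carried both, with H3K27ac in 2 of 3 lists and not within 1000 bases. Bcl2l10, the member that led in 2C-embryos, had H3K27me3 in all 3 lists of each of the 4 conditions. These H3K27me3 peaks were weak. With a −log10 q of at least 10, H3K27me3 was at 0 of 10 members in every condition, and at 0.0537% to 3.34% of genes. In Obox4 KO untreated cells, and with PlaB in WT and Obox4 KO, H3K27ac was at 5 of 10 members (51.2%, 48% and 48.4% of genes), without Bcl2l2 and Bcl2l11. With PlaB, H3K4me3 at Bcl2l10 was in 2 of 3 lists in WT and 1 of 3 in Obox4 KO, and H3K27me3 at Bmf was in 0 of 3 lists in WT and 2 of 3 in Obox4 KO. The presence of a peak in a list depends on the depth of that library, and no test was made between conditions.

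**Figure D5:**
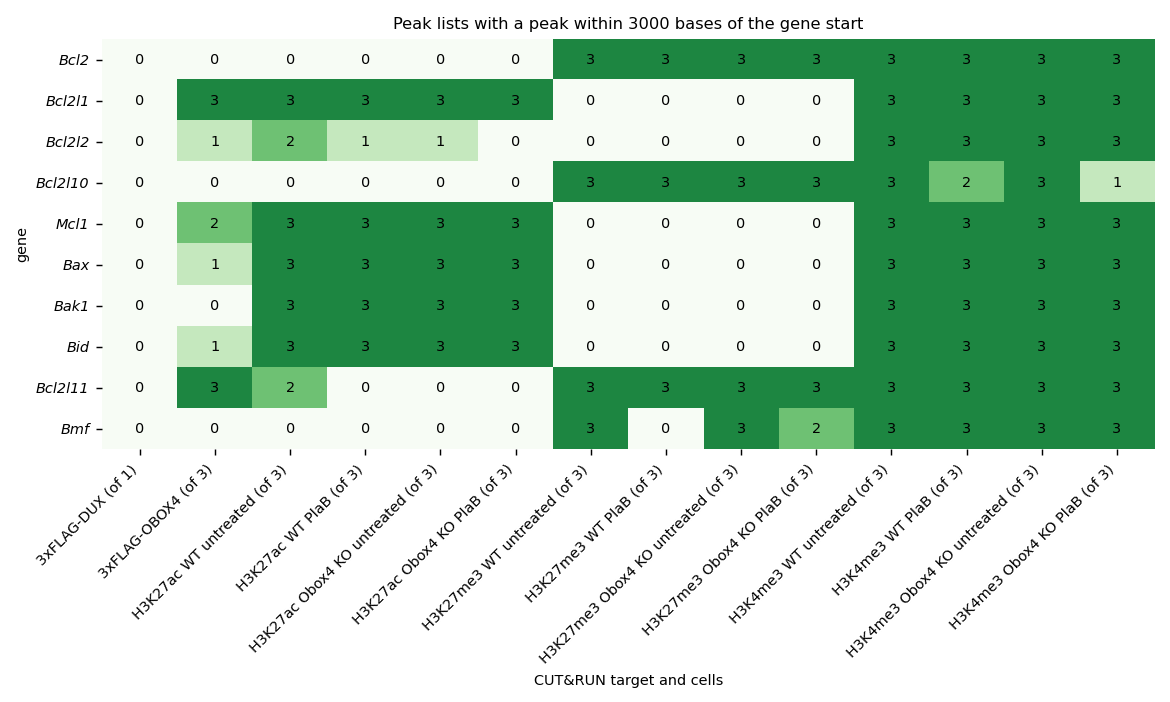
Number of peak lists with a peak within 3000 bases of the gene start for each member (rows, by role) and each CUT&RUN target and cell group (columns, with the number of lists); darker green is a larger share of lists. OBOX4 peaks are in all 3 lists at Bcl2l1 and Bcl2l11, DUX peaks are at none, and H3K27me3 is in 3 of 3 lists at Bcl2, Bcl2l10 and Bcl2l11 in every condition.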

How the data were processed

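RNA-seq count tables and CUT&RUN peak lists were taken as deposited. In the authors' pipeline, trimming used fastp v0.23.2, alignment to the GRCm38.p6 genome used STAR v2.7.9a, and featureCounts v2.0.1 assigned the reads to genes. The deposited gene counts are raw and whole, apart from the blastomere tables. A second set of tables, holding deposited expected counts over genes and repeats, and the blastomere tables, counted by the authors without strand, share multi-mapping reads in fractions, and these were rounded to whole numbers. Peaks were called by the authors per replicate with MACS3 v3.0.0a6 after Bowtie2 v2.4.1, and the deposited lists give each peak's fold enrichment, a ratio to local background, and its −log10 q.

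The groups of each experiment were fitted together with edgeR v4.0.16 (R v4.3.3; filterByExpr, TMM, quasi-likelihood test), and p-values were adjusted by Benjamini-Hochberg over all genes tested. Calls required an adjusted p of at most 0.01 and at least 2-fold. DESeq2 v1.42.0, RLE scaling, no filter, the tables with repeats, a replicate block and leaving out each library were alternatives, and the scripts were tested on simulated data. With 14283083 to 104864947 counts per library, genes near 1 CPM rest on few reads, and counts of single-cell PCR products are not independent molecules. Gene counts do not separate isoforms of Bcl2l1 or Mcl1, and Bax shares sequence on its strand with Gm45808.

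The 10 members and the lists of other genes were chosen with earlier results of these data known. Named genes were the members, up to 4 called genes of each pathway list per comparison with the smallest p, the targeted genes, and the 3 genes most like each member by Pearson r of group means of log2(TPM + 1), among genes that reach 5 TPM in a group. Promoter and peak windows were 3000 bases to either side of a gene's start, counted in 2 or more of 3 lists. Of 87 samples, 3 IgG libraries were in no group and were not used.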

Additional observations from a re-analysis of the deposited data

Results flagged for a closer look

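For 2 members the contrast for Obox4 with Dux low or absent differed from that with Dux present at an adjusted p of at most 0.05, and neither was called at the thresholds used here. The difference for the Obox4 ASO with and without the Dux ASO in 2C-embryos was -0.57 (log2) for Bcl2l10 (edgeR adjusted p = 0.00423). The libraries labelled Obox4 KD showed no lower Obox4 sum, so that it does not compare equal depletions. Total ASO dose was higher in the double KD than in the Dux KD, but lower in the labelled Obox4 KD than in scramble. The difference for Bcl2l10 therefore cannot be told apart from one of dose. The difference for the Obox4 deletion with and without the Dux deletion in PlaB-treated mESCs was -0.94 for Bcl2l2 (edgeR adjusted p = 0.0269), and without Obox4 KO replicate 3 it was called. That library stood apart from the other 2 of its group, with an Obox4 sum of 11.9 CPM against 4.68 and 3.65 CPM and morula and trophectoderm markers at 2841 TPM against 1542 and 1488 TPM. The Obox4 sum was near 0 in both Dux KO and the double KO, so that the PlaB difference does not compare equal losses of Obox4 RNA either.

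For the other results the libraries of one system lay wholly on one side of their controls and those of another system on the opposite side, and the difference was not tested in any of them. Ranges apart from the controls were common, at 55.3% of all genes in the 2C double KD against the Dux KD. Against scramble the shares in 2C-embryos were 49.2% in the labelled Obox4 KD, 61% in the Dux KD and 70.9% in the double KD. With PlaB the shares were 45.5% in Obox4 KO, 56.9% in Dux KO and 56.1% in the double KO against WT. For the PlaB double KO against Dux KO the share was 48.9%. Such ranges were not particular to the members. They were found for 57.4% of genes in morulae labelled double KD and 39.6% in blastomere Obox4 KO. In the double KD, log2 fold changes in 2C-embryos and in morulae labelled double KD were -1.45 and 0.79 for Bcl2l10, and 0.89 and -0.68 for Bax. In those morulae the maternal transcripts were also higher than in scramble (37.0 and 99.1 TPM against 20.6 and 21.5 TPM), and their part was not tested. With both factors depleted or deleted, Bcl2l1 was at -0.39 in 2C-embryos and 1.36 in PlaB-treated mESCs.

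For the Obox4 ASO on top of the Dux ASO in 2C-embryos against the Obox4 KO in Dux-deleted blastomeres, the values were -0.21 and 0.55 for Bcl2l1. They were -0.18 and 1.27 for Bcl2l2, and 0.41 and -1.71 for Bax, which rests on few reads in single cells. For Bcl2l2 the lower KO blastomere (1.57 CPM per kilobase) barely exceeded the higher WT blastomere (1.569), and the WT libraries held 20 and 282 counts. With the same 2C contrast set against the double KO over Dux KO in PlaB-treated mESCs, the values were -0.21 and 1.03 for Bcl2l1. They were -0.18 and 0.41 for Bcl2l2, and 0.55 and -0.20 for Bid. For Obox4 alone, Bcl2l11 was at -0.24 in 2C-embryos labelled Obox4 KD and 0.65 in PlaB-treated Obox4 KO, and for Dux alone Bcl2l1 was at -0.18 and 0.33. Depletion in embryos and deletion in blastomeres or cultured cells came with a different kind of sample in each case, and the 2 cannot be told apart.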

How the results depend on the processing

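Of 11 called fold changes 7 kept their call under every alternative run, and the others were Bid and Bmf in the Dux KD, Bax in the rescue and Bcl2l1 in the PlaB double KO against Dux KO. Of the 46 fold changes named, 0 reversed over 538 alternatives, and of all 132 fitted, 30 changed sign under some alternative, with 0 of them called. At an adjusted p of at most 0.05 with no fold threshold, the members called in 2C-embryos were 1 in the labelled Obox4 KD and 4 in the Dux KD. They were 7 in the double KD, 1 in the double KD against the Dux KD and 5 in the rescue. With PlaB they were 4 in Obox4 KO, 1 in Dux KO and 2 in the double KO against Dux KO. The share of all genes at this loose limit is not given here. The shares that follow are at another limit and are no direct background for these counts. At an unadjusted p under 0.05 were 7 of 10 members and 45.2% of all genes in the double KD. In the rescue these were 6 of 10 and 38%, in the Dux KD 5 of 10 and 31.6%, and in PlaB Obox4 KO 4 of 9 and 37.7%. In PlaB Dux KO they were 3 of 9 and 28.7%, and in the PlaB double KO against Dux KO 4 of 9 and 38.5%. DESeq2 moved 1 count, to 1 (Bmf) in blastomere KO. For the PlaB double KO against Dux KO the count was 0 with no low-count filter and 0 in the tables with repeats. RLE scaling changed 0 of 16 counts.

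Leaving out each replicate gave counts of 0 to 1 for the Dux KD, 3 to 4 for the double KD and 1 to 2 for the rescue in 2C-embryos, 0 to 1 in morulae, 0 to 1 for the PlaB double KO against Dux KO and 0 to 1 for the PlaB difference of effects. An arm left with 1 library was assumed to vary like the other groups. The numbers of the replicates did not pair the libraries of whole experiments (correlations of same-numbered deviations from -0.88 to 0.73 in the induction, -0.25 to 0.18 in 2C-embryos, -0.01 in morulae, -0.05 to 0.02 in blastomeres and -0.02 to 0.29 with PlaB), and a replicate block changed 0 of 16 counts, with 3 members called in the double KD and 2 in the PlaB double KO as before. Over all genes the block on the 3 induction times lowered the calls from 735 to 373 at 48 h and from 141 to 37 at 12 h. The 0 h and 48 h libraries alone did pair by number (every r at least 0.258), and a replicate block with only those 2 groups, chosen after seeing the data, called 982 genes and 0 members. In 2C-embryos Bmf, Bax and Bak1 were near or under 3 CPM, with 2 libraries a group.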
